A study of Mus musculus with 6 samples.

Results

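The long isolated Tbx5-dependent noncoding loci are 279 stretches of the mouse genome that the authors' table types as Tbx5-dependent noncoding RNA, that span at least 1000 bp and that begin in a 1-Mb bin holding fewer than 5 loci of that type. The rule reads type, length and position and no expression value of the table, but whether these libraries entered the authors' choice of the type is not known, so the pellet values may not be independent of it. They make up 279 of 849 loci of the class and of 28660 loci in all. The rest of the class consists of 308 loci of at least 1000 bp in runs of 5 or more per bin and 262 loci under 1000 bp. The loci in runs had a median length of 6896.5 bp, against 3386 bp for the isolated ones, so these groups are not matched for length.

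The RNA came from nuclei of HL-1 cells, an established line of mouse atrial cardiomyocytes that keeps contracting in culture and was grown in medium with norepinephrine. Detergent-released nuclei were separated into a chromatin pellet, which retains RNA bound to chromatin, and a soluble nuclear extract, with 3 biological replicates of each fraction and 6 libraries in all. No genotype, drug or time point distinguishes the groups, and no library is labelled with a change in Tbx5. Dependence on Tbx5 is therefore the class name in the table and is not measured here, and the sources used here do not say how the class was selected. The table holds 1 pooled value per fraction, so the replicates' spread cannot be computed, no test was possible for any locus or group, and all differences are descriptions of these pooled values.

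Tbx5 is a T-box transcription factor that patterns the atria and the conduction system and acts together with Gata4 and Nkx2-5 at cardiac enhancers. Active enhancers are commonly transcribed by RNA polymerase II into noncoding RNAs, many of which are scarce, quickly degraded by the nuclear exosome and retained where they are made. RNA that stays on its template is recovered with the chromatin pellet, and released messages pass into the soluble nucleoplasm on their way to export.

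The 279 loci fell into 262 distinct spans on 20 chromosomes, with 26 on chromosome 1, 22 on chromosome 5, 21 on chromosome 9 and 1 on chromosome X. They had 99 members alone in their bin, 83 in bins with 2 loci of the class, 52 in bins with 3 and 45 in bins with 4. The median span was 3386 bp (interquartile range 1693.5 to 12539), and the longest was 414783 bp. In 94 loci (33.7%) the coordinates were exactly those of at least 1 annotated gene in the table. These shared spans had a median of 30388 bp, and the 4 loci of 414783 bp on chromosome 8 all carry the span of Palld, which encodes the actin-associated protein palladin. The other 185 loci had a span of their own, overlapped no annotated gene of the table and had a median length of 2197 bp (interquartile range 1455 to 3671). Among long loci in runs the shared share was 35.1%, and among short loci 1.15%. The length of a shared span is thus also that of the gene, and need not be that of the noncoding transcript.

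Against RefSeq gene spans on GRCm38.p6, 139 of the 279 loci overlapped a gene and 140 did not. The own-span loci divided into 55 that overlapped a RefSeq gene, often a predicted one that the authors' table lacks, and 130 that did not. For 176 own-span loci the nearest start of a protein-coding gene was known (chromosome 18 has no entry in the start table used), and it lay at a median of 44219.5 bp (interquartile range 14718.5 to 114603). Only 1 of these lay within 1000 bp of such a start, 17 within 5000 bp and 126 within 100 kb. On the strand of that gene, 110 loci were upstream of its start and 66 downstream.

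Of the 279 loci, 61 had a RefSeq start inside their span, giving 105 windows of 250 bases before a start from 84 genes, some of them overlapping. Loci with the same span share their windows. The first 4 sequences below belong to the loci with the 2 highest folds (among those averaging at least 0.5 FPKM) and the highest level, and the fifth to a locus of its own span that lies beside a coding start. They are shown as examples, chosen by locus and, for LOC105247329 and Tnrc18, because they hold a match. The loci themselves carry no strand or transcript start in the table. Each is written 5′ to 3′ on the strand of its gene and ends at the base before the start, from RefSeq on GRCm38.p6, and capitals mark AGGTGT, the core of the T-box element.

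C130083M11Rik, chr5:52216434-52216683, minus strand, in the span of XLOC_041902: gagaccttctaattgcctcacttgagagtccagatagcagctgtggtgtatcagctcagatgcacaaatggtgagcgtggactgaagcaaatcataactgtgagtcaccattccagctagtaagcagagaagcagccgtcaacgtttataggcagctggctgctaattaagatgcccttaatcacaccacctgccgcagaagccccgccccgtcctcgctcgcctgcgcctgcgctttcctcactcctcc

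Nr2f1, chr13:78198874-78199123, minus strand, in the span of XLOC_014150: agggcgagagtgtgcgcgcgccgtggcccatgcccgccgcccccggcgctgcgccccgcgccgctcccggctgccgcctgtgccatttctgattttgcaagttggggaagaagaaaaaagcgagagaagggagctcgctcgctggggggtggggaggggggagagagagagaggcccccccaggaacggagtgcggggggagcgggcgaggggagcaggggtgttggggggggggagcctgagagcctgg

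A830082K12Rik, chr13:78197767-78198016, plus strand, in the span of XLOC_014150: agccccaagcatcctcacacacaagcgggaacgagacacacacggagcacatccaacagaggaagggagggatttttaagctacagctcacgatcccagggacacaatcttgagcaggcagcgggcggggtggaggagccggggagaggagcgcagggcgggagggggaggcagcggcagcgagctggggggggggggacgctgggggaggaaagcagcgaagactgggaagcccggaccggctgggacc

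LOC105247329, chr6:145379432-145379681, minus strand, in the span of XLOC_048282: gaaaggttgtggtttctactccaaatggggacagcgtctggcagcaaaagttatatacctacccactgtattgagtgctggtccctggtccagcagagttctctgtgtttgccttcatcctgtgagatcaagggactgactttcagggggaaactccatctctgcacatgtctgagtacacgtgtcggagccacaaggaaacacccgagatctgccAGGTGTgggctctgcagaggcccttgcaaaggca

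Tnrc18, chr5:142817663-142817912, minus strand, beside XLOC_044456: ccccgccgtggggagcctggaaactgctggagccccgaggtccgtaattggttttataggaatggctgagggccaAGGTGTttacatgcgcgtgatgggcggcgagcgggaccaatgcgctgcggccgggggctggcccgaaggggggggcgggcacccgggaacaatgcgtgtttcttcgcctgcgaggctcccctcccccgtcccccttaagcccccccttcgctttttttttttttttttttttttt

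The Nr2f1 window is 72.0% G and C with 22 CpG dinucleotides (39.6% and 2 at a second Nr2f1 start in the span, not printed), and that of A830082K12Rik, which is transcribed in the opposite direction from inside the same span, is 66.4% with 15. The window of C130083M11Rik has 53.6% and 10 CpG. In LOC105247329 the window has 52.4% and 4 CpG, and the single AGGTGT begins 34 bases before the start; the other 3 windows in that span, before Lmntd1, Gm15499 and Gm38475, hold none. The single match before Tnrc18 begins 175 bases before the start in a window of 61.6% G and C with 20 CpG. Counting both strands, AGGTGT was found in 11 of the 105 windows inside spans (10.5%) and in 3887 of all 32851 RefSeq windows of the same length (11.8%). GGTGTGA, which overlaps AGGTGT by 5 letters when the full AGGTGTGA is present, was found in 3 windows (2.86%, against 3.33% of all). The full AGGTGTGA was found in 0 windows inside spans, against 1.12% of all. Within 5 kb of own-span loci, 39 windows held AGGTGT in 2 (5.13%), and neither of the longer forms. These shares lie near or below those of all windows, and letters absent from a window of 250 bases say nothing of the factor.

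Expression is given as FPKM, fragments scaled to transcript length and library size, which is a level per length. For the fold, pellet FPKM was multiplied by 3.37, the factor that brings the synthetic spike-in RNAs of both fractions onto 1 line, and divided by soluble FPKM. Folds are given as log2, and a positive value means more in the pellet. Without the factor (the FPKM scale) every log2 value is lower by 1.75. Across all 13917 loci whose fractions averaged 0.5 FPKM or more, the median log2 fold was 0.41, or -1.34 on the FPKM scale. Depth is unknown because FPKM holds no counts, and the spike-ins give the only error available: 47 spike-ins above the filter scattered about the common line with an SD of 0.12 (log2), 16 between 0.05 and 0.5 FPKM with 0.37, and 19 below 0.05 FPKM with 0.85. This error covers library making and quantification of pooled values and leaves out the cells and the fractionation.

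The long isolated loci were scarce RNAs that lay towards the chromatin pellet. Their median level was 0.0459 FPKM in the soluble fraction and 0.15 FPKM in the pellet, and 39 of the 279 reached a mean of 0.5 FPKM. Over all 279, whatever their level, 255 (91.4%) exceeded the soluble level by 2-fold or more in the pellet and 1 was at least 2-fold lower. Treated alike, 49.8% of all 28660 loci were higher and 8.88% were lower. For the 279, the median log2 fold was 3.68 (interquartile range 2.50 to 4.27). On the FPKM scale 195 were at least 2-fold higher and 20 lower.

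Across the table, loci of low level lay towards the pellet more often, so the long isolated loci were also read against all loci of their level. Below 0.05 FPKM there were 97, of which 86 were higher and 0 lower, where 69.8% of all loci at that level were higher and 6.43% lower. Between 0.05 and 0.5 FPKM there were 143, of which 136 were higher and 1 lower, against 61.9% and 8.68%. Their medians were 3.60 and 3.71. In the lowest band 77 of 97 exceeded every spike-in of that level (the largest spike-in value was 1.70), and in the next band 139 of 143 did (largest 0.35). The share of all loci above the spike-ins was not computed, so these counts set the long isolated loci against the error only. In the band from 0.05 to 0.5 FPKM, the 61.9% of all loci that were 2-fold higher also exceeded every spike-in. The most extreme value of the set has no meaning as a fold: XLOC_055846 is listed at 4.81e-08 FPKM in the soluble fraction.

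Of the 39 loci past the filter, 33 reached 2-fold towards the pellet (30 reached 4-fold, where 14.7% of all tested loci did) and 0 reached it the other way, where 31.9% of all tested loci were higher and 10.5% lower. On the FPKM scale the same loci gave 27 higher and 5 lower, against 9.66% and 61.2%. Their median log2 fold was 4.09, or 2.33 on the FPKM scale. The filter itself shapes these counts, since 21 of the 39 passed only through their pellet value and had to differ. The 18 with a soluble level of at least 0.5 FPKM, a condition that does not read the pellet, had a smaller median of 2.12, with 12 higher (7 on the FPKM scale) and 6 within 2-fold. Among all 13719 loci under that condition the median was 0.32, 27.9% were higher and 11.5% lower.

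**Figure D1:**
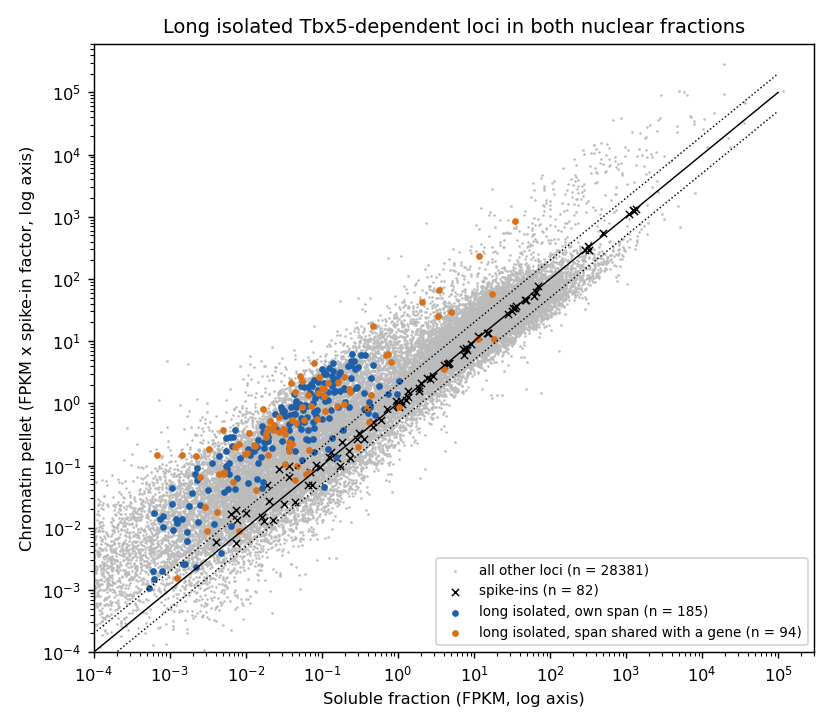
Soluble FPKM (x, log axis) against pellet FPKM times the spike-in factor (y, log axis) for every locus; blue and orange points are the 279 long isolated loci with their own span or a span shared with an annotated gene, crosses are the 82 spike-ins, and the lines mark equality and 2-fold either way. Most long isolated loci form a band above the upper 2-fold line below 1 FPKM, and the few at higher soluble levels lie both on the band and on the line of equality. Loci below the range of the axes, such as XLOC_055846 and XLOC_006261 by their soluble level, fall outside the plot.

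The most abundant locus was XLOC_041902, chr5:52199984-52279034, with 35.0 FPKM in the soluble fraction and 255 FPKM in the pellet, a log2 fold of 4.62. It alone held 53.0% of the summed pellet FPKM of the 279 loci and 25.2% of their soluble sum, so sums over the set describe this locus first. Its span is that of 9230114K14Rik, a processed transcript with 1.35 FPKM soluble and 5.22 FPKM pellet (fold 3.70), and of C130083M11Rik, a long intergenic RNA at 0.0102 and 0.0143 FPKM whose start is printed above. A second entry of 9230114K14Rik, a long intergenic RNA outside this span, had 2.40 and 2.95 FPKM (fold 2.05). The TEC locus Gm43180 has the same span as XLOC_041902, at 0.0731 and 0.788 FPKM (fold 5.18). The span lies 9438 bp upstream of the start of Dhx15, which encodes a helicase that takes spliceosomes apart. XLOC_034376, chr3:83125276-83357209, came next with 11.7 FPKM soluble and 70.4 FPKM pellet (fold 4.34). It shares its span of 231934 bp with the cadherin gene Dchs2, whose levels were 5.80 and 3.78 FPKM (fold 1.13).

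XLOC_000350, chr1:58505148-58586323, had 3.47 FPKM soluble and 19.5 FPKM pellet, a fold of 4.24. In the same span Fam126b, a coding gene, had a fold of 2.01 and the long intergenic RNA Gm15834 one of 4.34, so the value of the locus was close to that of the noncoding gene and over 2 log2 units above the coding gene. XLOC_010288, chr11:94133485-94155776, had 2.08 FPKM soluble and 12.5 FPKM pellet (fold 4.34). B230206L02Rik, the processed transcript of the same span, lay within 2-fold on the soluble side at 7.10 and 1.25 FPKM (fold -0.75). XLOC_046517, chr6:145365134-145614319, had nearly equal FPKM of 17.0 and 16.8, which is a fold of 1.73 with the spike-in factor and -0.02 without it, and is a call that rests on the scale.

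The highest fold past the filter belonged to XLOC_048282, which covers the same 249186 bp on chromosome 6 as XLOC_046517 and the coding gene Lmntd1. It had 0.0779 FPKM in the soluble fraction and 1.31 FPKM in the pellet, a log2 fold of 5.83, against 1.08 for Lmntd1 (7.69 and 4.83 FPKM). Another locus of the class in that span, XLOC_046516, had a fold of 1.62, so 3 loci with identical coordinates differed by over 4 log2 units.

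XLOC_014150, chr13:78188973-78279391, had 0.467 FPKM soluble and 5.14 FPKM pellet, a fold of 5.21. It carries the span of Nr2f1, which encodes COUP-TFI, an orphan nuclear receptor expressed in atrial muscle. Nr2f1 itself stood at 10.0 FPKM soluble and 2.91 FPKM pellet (fold -0.03), and its antisense neighbour A830082K12Rik at 5.77 and 2.49 FPKM (fold 0.54). The noncoding locus was thus the most pellet-sided of the 3 transcripts of this unit, although the table does not show how fragments were divided between transcripts of a shared span or whether the strand was used.

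Among the loci with their own span, XLOC_001965, chr1:4742213-4743417, had the highest fold past the filter, with 0.0994 FPKM soluble and 1.06 FPKM pellet (5.17). XLOC_025364 near Gata6 was next at 5.0. XLOC_036602, chr3:97275957-97277546, had 0.106 and 0.938 FPKM (4.90) and lies inside the RefSeq span of Bcl9, a coactivator of beta-catenin in Wnt signalling. XLOC_045161, chr6:42383486-42385407, had 0.124 and 1.08 FPKM (4.88). It is 2270 bp from Zyx, which encodes the focal adhesion protein zyxin and had 29.4 FPKM soluble, 11.5 FPKM pellet and a fold of 0.40. XLOC_021391, chr16:92127154-92129269, had 0.114 and 0.894 FPKM (4.73) and lies 14926 bp from Mrps6, a mitochondrial ribosomal protein gene with a fold of -0.69. All of these passed the filter only through their pellet value, which with a high fold fixes a low soluble level.

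**Figure D2:**
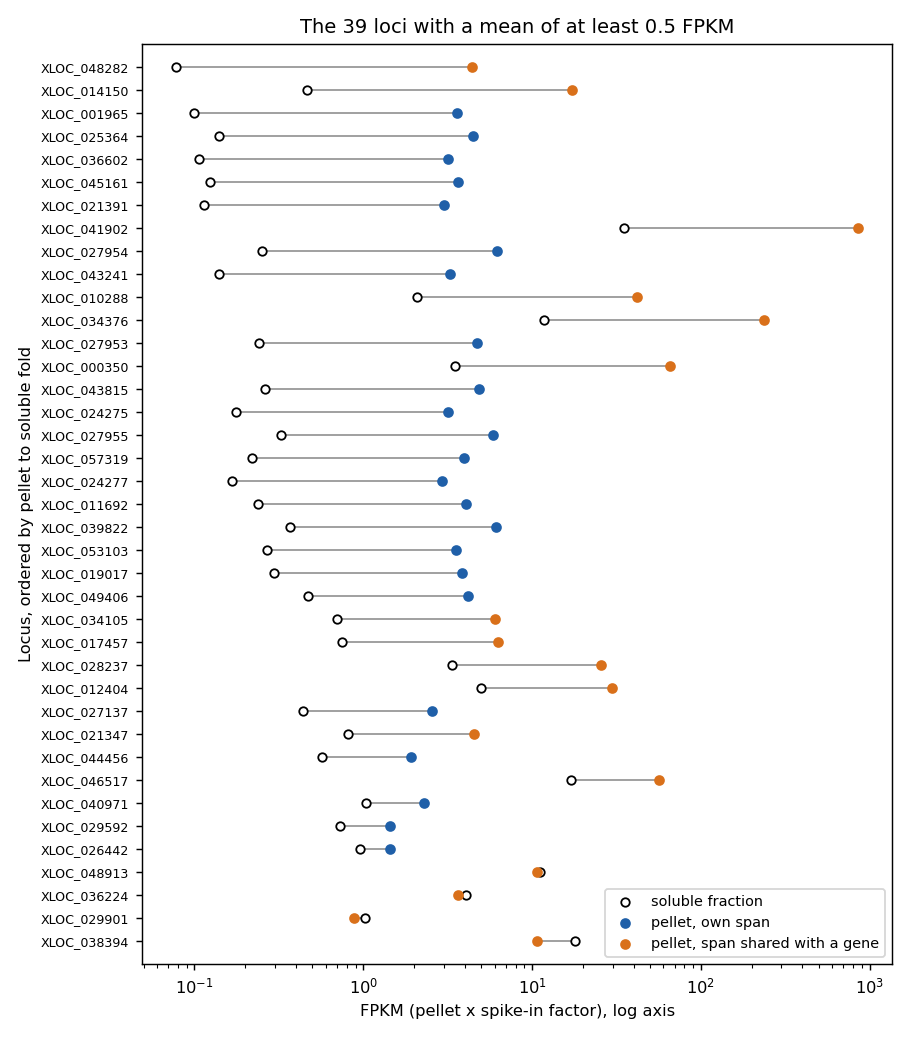
The 39 loci past the level filter, ordered from the highest fold at the top; the open circle is soluble FPKM and the filled circle pellet FPKM times the spike-in factor (x, log axis), blue for an own span and orange for a span shared with an annotated gene. The 23 own-span loci start at or below about 1 FPKM in the soluble fraction, and all loci at or above 2 FPKM there, such as XLOC_041902, have a shared span.

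No locus past the filter was 2-fold lower in the pellet, and 6 lay within 2-fold. XLOC_038394, chr4:84697863-84698910, had the lowest fold, with 18.1 FPKM in the soluble fraction and 3.17 FPKM in the pellet (-0.76). Its span is that of Gm12420, a processed pseudogene, which means a copy of a messenger RNA inserted back into the genome. Values at such near-identical copies are uncertain where reads could be split between copies, which was not tested here. Gm12420 itself was listed at only 0.00455 FPKM soluble and 0.00185 FPKM pellet. XLOC_029901, chr2:92043373-92364666, the longest locus past the filter at 321294 bp, had 1.02 and 0.261 FPKM (-0.21). It shares its span with Phf21a, a reader of unmethylated histone H3 in the LSD1 complex, and here the coding gene was the more pellet-sided at 13.1 and 15.2 FPKM (1.96). XLOC_036224, chr3:83811471-83832219, in the span of the pseudogene Gm7115, had 4.05 and 1.08 FPKM (-0.16). Gm7115 itself was listed at only 0.00478 and 0.00533 FPKM. XLOC_048913, chr7:29956340-29965723, in the span of the processed transcript C230062I16Rik (fold 0.49), had 11.2 and 3.19 FPKM (-0.05).

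The remaining 2 within 2-fold had their own span, XLOC_029592 on chromosome 2 (0.731 and 0.427 FPKM, fold 0.98) and XLOC_026442 on chromosome 18 (0.962 and 0.426 FPKM, fold 0.58). Below the filter, XLOC_024267, chr17:27235801-27237161, was the only locus of the 279 lower in the pellet by 2-fold or more. It had 0.106 FPKM soluble and 0.0135 FPKM pellet (-1.22), where spike-ins of that level ranged from -0.84 to 0.35. Its nearest annotated gene is Lemd2, an inner nuclear membrane protein gene, and XLOC_024267 itself overlaps a RefSeq gene span. Of the 4 loci past the filter and within 2-fold that have shared spans, 3 have a span listed for a pseudogene (XLOC_038394, XLOC_036224 and XLOC_029901). So do 5 of all 16 shared-span loci past the filter, among them XLOC_048282 with the highest fold there, and 12 of all 94 shared-span loci. This was noticed after their values were seen.

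XLOC_017457, at 195707 bp among the longest past the filter, carries the span of Zmiz1os1, the antisense partner of Zmiz1, and lies 5956 bp upstream of the start of Zmiz1, a SUMO ligase-like coactivator. It had 0.75 FPKM soluble and 1.87 FPKM pellet (3.07). XLOC_028237, in the span of Ric1, a Golgi exchange factor gene, had 3.35 and 7.63 FPKM (2.94), against 1.49 for Ric1. XLOC_012404 had 4.99 and 8.77 FPKM (2.57) and lies 397 bp upstream of the start of Mboat2, which encodes a lysophospholipid acyltransferase. The bidirectional RNA 2900060N12Rik of the same span had 2.57 as well, at only 0.176 and 0.311 FPKM. On the FPKM scale these loci had log2 folds of 1.32, 1.19 and 0.81.

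Several own-span loci stood in short chains that the count per bin did not remove. XLOC_027953, XLOC_027954 and XLOC_027955 follow each other on chromosome 19 from 8471020 to 8519011 with gaps of 118 and 165 bp. Their pellet levels were 1.40, 1.83 and 1.75 FPKM, and their folds 4.28, 4.61 and 4.18. XLOC_027951, 734 bp before them, had 4.06. XLOC_024275 and XLOC_024277 on chromosome 17, 453 bp apart, had 4.18 and 4.13, beside AI413582 (-0.10) and Nudt3 (-0.50), which encodes a diphosphoinositol phosphatase. XLOC_043240 and XLOC_043241 on chromosome 5, 83 bp apart, had 4.81 and 4.55. Over all 36 pairs of neighbouring own-span loci within 5000 bp, the median absolute difference in fold was 0.47 and 28 pairs differed by less than 2-fold, though only 3 pairs had both loci past the filter. How often loci that are not neighbours differ by less than 2-fold was not computed, so these values do not show a likeness particular to neighbours. Whether adjacent loci are pieces of 1 transcript cannot be told from the table, so they are not counted as independent.

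Compared with the gene at the same place or next to it, most loci were more pellet-sided. Only annotated genes were searched, so an own-span locus that overlaps a RefSeq gene was still set against its nearest annotated gene. An annotated gene with a symbol lay within 100 kb of 271 of the 279 loci. Where several genes were equally near, as in a shared span, a coding gene was taken first and then the most abundant. Locus and gene were both past the filter in 26 pairs with 25 distinct genes, where the loci had a median fold of 4.15 and the genes 0.82. The median difference was 2.57. The locus was above its gene in 23 pairs, by at least 2-fold in 18, and at least 2-fold below it in 2. In 11 pairs with a shared span the medians were 4.24 and 1.13 (median difference 1.45), and in 15 with separate spans 4.13 and 0.40 (median difference 4.27). With every tested gene of a shared span kept, these 11 loci formed 17 pairs with a median difference of 1.42. The locus was at least 2-fold above in 9 of the 17 and at least 2-fold below in 2. Over the 8 of them with a coding gene the median difference was 1.85. Passing the filter through the pellet value enters these differences too: with a soluble level of at least 0.5 FPKM for the locus, the median difference was 1.04 over 12 pairs. The 2 exceptions were XLOC_029901, named above with Phf21a, and XLOC_026442, which had 0.58 against 1.85 for the zinc finger gene Zfp397 at 19798 bp. XLOC_026442 also overlaps a RefSeq gene span, which did not enter the pair.

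**Figure D3:**
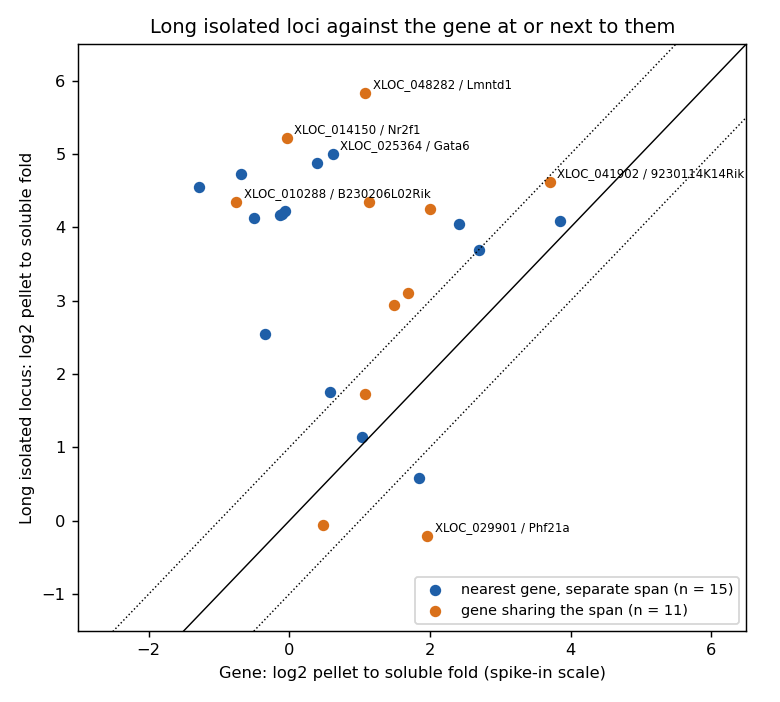
Log2 pellet to soluble fold of the gene (x) and of the long isolated locus (y) for the 26 pairs with both past the filter. Points are orange where they share a span and blue where the gene is the nearest annotated one within 100 kb. Lines mark equality and 2-fold either way. In 18 pairs the point lies above the upper line, with XLOC_014150 and Nr2f1 among the farthest, and XLOC_029901 with Phf21a lies below the lower line.

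Near genes of heart development and of enhancer function, 11 loci lay within 100 kb of a member of the lists, and these were almost all below the filter. Around Gata6, a zinc finger factor of the heart and endoderm, there were 4. XLOC_025364, chr18:11022446-11025686, had 0.14 FPKM soluble and 1.32 FPKM pellet (fold 5.0) at 23400 bp from the gene and is the only one past the filter. XLOC_025368 had 0.108 and 0.626 FPKM (4.29) at 12155 bp. XLOC_025369 had 0.075 and 0.557 FPKM (4.65) at 5494 bp, and XLOC_025374, at 59676 bp, had 0.00447 and 0.0426 FPKM (5.01). Gata6 was at 18.1 and 8.21 FPKM, a fold of 0.62. All 4 loci stood over 3 log2 units above the gene they flank in fold, and far below it in level per length.

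Near the other list genes the loci were fainter. XLOC_036576, in the shared span of Gja5, which encodes the atrial connexin 40, had 0.0367 and 0.0613 FPKM (2.50), where Gja5 had 3.08 and 0.567 FPKM (-0.69). XLOC_041223, within 100 kb of the natriuretic peptide genes Nppa and Nppb, had 0.0139 and 0.0182 FPKM (2.14), and Nppa had 1.63 and 0.208 FPKM (-1.21). For Kmt2c, an enhancer histone H3 lysine methyltransferase with 13.7 and 18.3 FPKM (2.17), XLOC_041585 had 0.238 and 0.448 FPKM (2.67). XLOC_041590, by the same gene, had 0.00068 FPKM in the soluble fraction, too low for its fold to be read. XLOC_030837, within 100 kb of the nuclear exonuclease gene Xrn2 (0.91), had 0.00713 and 0.11 FPKM (5.70). Within 100 kb of Smc3, a cohesin subunit (0.61), XLOC_028478 had 0.122 and 0.054 FPKM (0.58) and XLOC_028480 had 0.0167 and 0.0161 FPKM (1.70). Nearer genes were Dusp5 for the Smc3 loci (11629 and 8288 bp), Kiz for XLOC_030837 (4812 bp) and 2510039O18Rik for XLOC_041223 (13009 bp). XLOC_041585 and XLOC_041590 carry the spans of the long intergenic RNAs 4831440E17Rik and 1700096K18Rik.

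Among the members, 1 carries an Ensembl identifier and a name in the table. Chantico (Gm43086), chr5:90832328-90835951, is a member of the class by its type and had 0.202 FPKM soluble and 0.509 FPKM pellet, a fold of 3.09 (8.50-fold). Its mean was 0.356 FPKM, below the filter. It has the same coordinates as XLOC_042233, which had 0.227 and 0.258 FPKM, and lies 29260 bp from Cxcl15, a lung chemokine gene.

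With all levels kept, medians hardly differed by kind of span, RefSeq position or length, and differed more by the number of class loci in the bin. Own-span and shared-span loci had medians of 3.68 and 3.69, with 172 of 185 and 83 of 94 higher in the pellet. Past the filter the medians were 4.17 and 3.01, with 21 of 23 and 12 of 16 higher, but 19 of the 23 own-span loci and 2 of the 16 shared-span loci passed only through the pellet. With soluble FPKM of at least 0.5 the medians were 1.06 over 4 own-span loci and 2.75 over 14 shared-span loci, the opposite order. The order thus differed between the filters, which keep different loci, and the cause was not tested. Loci outside RefSeq genes had a median of 3.74 over 140 and loci inside 3.64 over 139. Past the filter the values were 4.17 and 3.01, and this difference turned to the opposite sign under some other filters given in the closing section. By length, the medians over all levels were 3.67 for loci below 2000 bp, 3.71 to 5000 bp, 3.63 to 20000 bp and 3.73 beyond. Spearman's rho between length and fold was 0.00332 across the 279 loci, and between mean FPKM and fold 0.0963, given as descriptions because loci share libraries and some share spans.

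By distance to a coding start the medians spread more than by length. The 17 own-span loci within 5 kb of a start had a median fold of 3.20 and all 17 were higher in the pellet. From 5 to 100 kb there were 109, with a median of 3.69 and 101 higher. Beyond 100 kb there were 50, with a median of 3.74 and 46 higher, at a median mean level of 0.0472 FPKM against 0.12 FPKM for those at 5 to 100 kb. Loci upstream of the start had a median of 3.66 and those downstream 3.81. XLOC_044456, 2269 bp upstream of Tnrc18, whose start is printed above, had 0.568 and 0.567 FPKM (fold 1.75), beside 0.58 for Tnrc18.

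At the length limit 2 loci on each side can be given. XLOC_023047 (1004 bp, chr17:31912681-31913684) and XLOC_027137 (1010 bp, chr19:5812397-5813406, 9724 bp from Malat1) lay just inside the length limit with folds of 3.77 and 2.55. XLOC_026420 (993 bp) and XLOC_036871 (981 bp) lay just outside with 2.27 and 3.03. For isolation, medians over all levels were 3.60 for loci alone in their bin (87 of 99 higher), 3.33 with 2 of the class in the bin, 3.80 with 3 and 4.06 with 4. Just outside the limit, the 15 long loci in bins with 5 had 3.62, the 22 in bins with 6 had 3.98 and the 24 in bins with 7 had 4.67.

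Set against the rest of the class, the long isolated loci were lower in fold than the long loci in runs. Over all levels the medians were 3.68 and 4.52, and the share at least 2-fold higher was 91.4% against 98.7% (304 of 308). With soluble FPKM of at least 0.5, 11 of 11 loci in runs were higher with a median of 4.64, against 12 of 18 with 2.12 for the isolated ones. Loci under 1000 bp had 3.58 over all levels with 235 of 262 higher, close to the isolated ones, but their levels were larger, with a median of 0.684 FPKM against 0.102 FPKM for the isolated loci (mean of both fractions). Short loci held 5.47% of all pellet FPKM, of which 67.8% was XLOC_041511 alone, and the isolated loci 0.0577%.

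Annotated noncoding RNAs of at least 1000 bp had medians from near that of the isolated loci down to between them and coding genes. Loci typed TEC, which are transcribed regions awaiting experimental support, had a median of 3.53 over all levels with 856 of 952 higher. Long intergenic RNAs had 2.37 with 2013 of 2540 higher, and antisense RNAs 2.16 with 1279 of 1708. Protein-coding genes had 0.55 with 6610 of 17913 higher. The isolated loci (3.68) were thus nearest to the TEC loci and the short loci of the class, and 1.31 above long intergenic RNAs. On the FPKM scale every one of these medians is lower by the same 1.75 and the order stays.

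**Figure D4:**
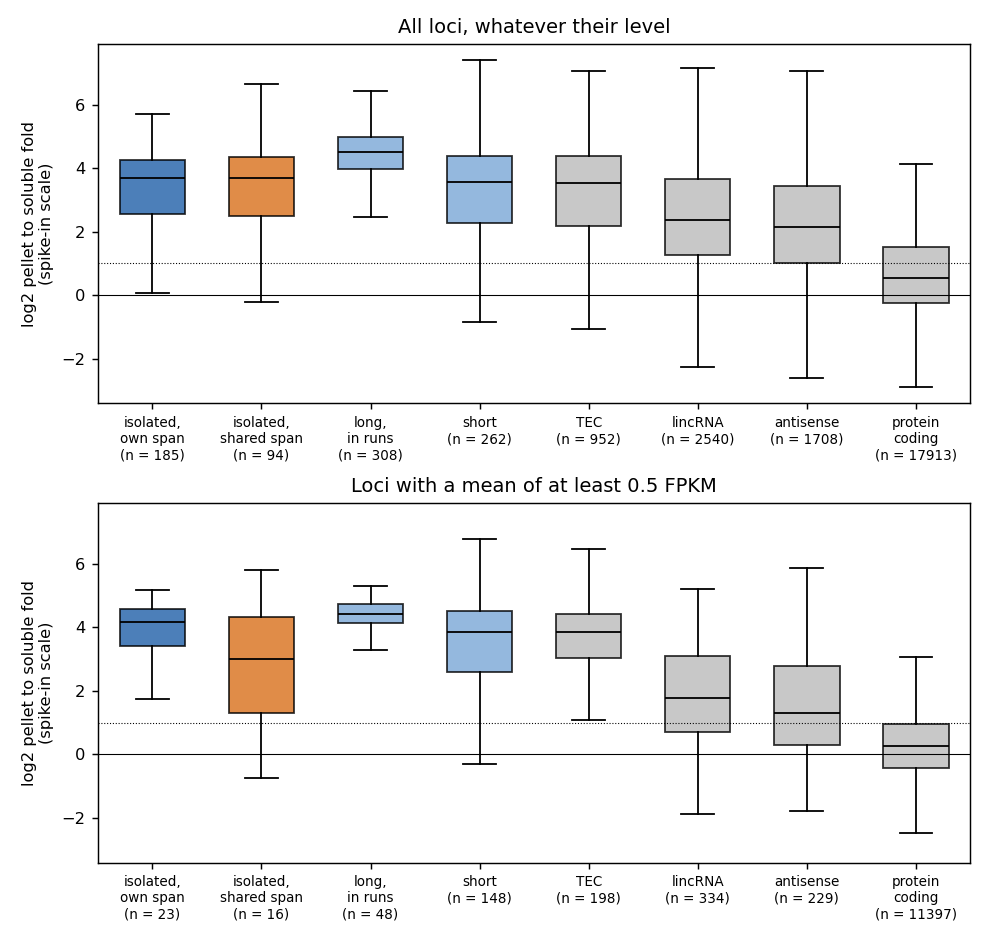
Log2 pellet to soluble fold by group over all levels (top) and past the level filter (bottom); boxes give the quartiles and median, whiskers reach the farthest locus within 1.5 box lengths, loci beyond are not drawn, and the dotted line is 2-fold. Isolated loci of both kinds have medians of 3.68 and 3.69 at the top and have 4.17 and 3.01 at the bottom, where 19 of 23 own-span loci passed only through the pellet, and coding genes lie lowest in both.

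The genes of the Tbx5 pathway had a median fold near that of all tested loci. Of 26 tested genes of the Tbx5 network (28 of 33 were in the table), 4 lay at least 2-fold towards the pellet and 4 away from it, where 31.9% and 10.5% of all tested loci did; their median was 0.46, beside 0.41 for all tested loci. Among them Meis2, a homeobox factor, had 2.09 and Sln, the atrial calcium pump regulator sarcolipin, -1.55, and Tbx5 itself had 0.86. Of 17 enhancer and chromatin architecture genes 6 were higher, a share close to that of all tested loci, and none lower (median 0.83), such as Ep300, an enhancer acetyltransferase (1.31), and Nipbl, the cohesin loader (1.26). The enhancer RNA processing genes had 4 of 16 higher and 1 lower (median 0.48), with Zfc3h1, a nuclear exosome adaptor, at 3.05. Sarcomere genes had 4 of 12 higher and 3 lower (median -0.09). On the FPKM scale the lists had 0, 0, 1 and 0 higher and 18, 8, 11 and 8 lower in this order, where 61.2% of all tested loci were lower.

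Cell identity was read from markers. The 4 cardiomyocyte markers in the table summed to 2269 FPKM soluble and 437.6 FPKM pellet. Tested fibroblast markers summed to 5.32 and 1.04 FPKM, endothelial to 6.60 and 2.15, immune to 0.711 and 0.569 and neuronal to 2.01 and 1.14, and no skeletal muscle marker passed the filter. The 4 smooth muscle markers summed to 1922 and 289.7 FPKM, nearly all from Acta2 (1539 soluble) and Tagln (381 soluble), while Cnn1 had 1.43 and Myh11 0.867 FPKM soluble. Their part in the levels of the isolated loci was not tested.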

How the data were processed

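Nuclear RNA of HL-1 cells was measured in 3 chromatin pellet and 3 soluble nuclear libraries with spike-in standards added to each fraction, ribosomal RNA depletion and a directional kit, per the labels' protocols. The submitters' processing notes name Cufflinks and Cuffdiff, HISAT2 as well as SAMtools and bedtools, and build mm10; the sources used here give neither settings nor use of strand. The authors deposited 1 table with 1 FPKM value per fraction, per the file headers, so replicates are pooled and no fold carries a replicate error. The deposited rescaled pellet and total signal, their ratio as enrichment and the log10 of both, per the file headers, were used only to check the scale. Depth is unknown.

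Of 30687 lines, 1945 repeated an identifier and were dropped, leaving 28660 loci and 82 spike-ins. For the spike-in factor, soluble FPKM of the spike-ins was regressed on pellet FPKM by least squares with no intercept. Folds used no pseudocount, the filter was a mean of 0.5 FPKM, and 2-fold was called (Python 3.11.15, pandas 2.3.3, NumPy 2.4.6), with the scripts tested on simulated data. Starts in the table count from 0, and 1 was added. RefSeq spans and windows came from GRCm38.p6, the build of mm10. Ensembl identifiers were matched to symbols for 27475 of 27812.

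Loci were named by rule: the 8 highest and 5 lowest folds, the 8 highest levels, the 5 longest, those near listed genes and those at the length limit. Further loci (adjacent chains, gene starts, Chantico and the remaining loci within 2-fold) were chosen after their values were seen, as were the windows before RefSeq starts. The members and lists were chosen with earlier results of these data known. Alternatives covered scale, filter, pseudocount, length, isolation and neighbour distance.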

Additional observations from a re-analysis of the deposited data

How the results depend on the processing

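Each fraction has 1 pooled value, so no replicate could be left out and only the spike-in scatter (SD 0.12, log2) serves as spread. No paired analysis was possible because all replicates of a fraction are combined in 1 column. Across 51 alternatives, 23 stayed within that spread or within 1.5 times the count, 23 moved beyond it and 5 turned sign. The count of 33 loci higher in the pellet was 255 of 279 with no filter, 14 of 17 at a mean of at least 1 FPKM, 9 of 13 for loci alone in their bin, 13 of 17 with no other class locus within 100 kb and 12 of 18 at a soluble FPKM of at least 0.5, the last a setting chosen after seeing the data; fewer or more loci enter each of these. The median fold of 4.09 was 2.33 without the spike-in factor, 3.68 with no filter, 3.11 at 1 FPKM, 3.68 with 0.1 FPKM added and 2.12 by the soluble filter. The difference from long intergenic RNAs (2.31) kept its sign at 1.31, 1.41, 1.91 and 0.80 in the last 4 of these settings, and that from loci in runs (-0.34) was -0.84, -1.63 and -2.53 with no filter, at 1 FPKM and by the soluble filter. Locus minus gene (2.57) was 2.28 with no filter, 1.54 at 1 FPKM, 1.45 for overlapping genes only and 1.04 by the soluble filter.

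Differences between subsets past the filter did not hold. Inside minus outside RefSeq genes (-1.17) was -0.11 with no filter and -0.81 with 0.1 FPKM added, and turned to 0.65 with no other class locus within 100 kb and 1.47 by the soluble filter. Long isolated minus short loci (0.22) turned to -0.77 at 1 FPKM, -0.0023 with 0.1 FPKM added and -1.41 by the soluble filter. The cause was not tested. The planned motif search over whole loci was not run, as no genome sequence was used here; windows before RefSeq starts took its place. Levels below 0.05 FPKM limit single folds, with a spike-in SD of 0.85.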
